A study of Mus musculus with 12 samples.

Results

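The genes described here are 3 cadherins (Cdh1, Cdh2 and Cdh3), 5 transcription factors of epithelial-mesenchymal transition (Snai1, Snai2, Twist1, Zeb1 and Zeb2) and 2 genes widely read as mesenchymal markers (Vim and Fn1). They were taken by symbol from the table of read counts, 10 genes of the 25210 in it. All 10 passed the filter on low counts, which kept 15316 genes for the tests. They were followed in mammary epithelial organoids of virgin female FVB/N mice aged 8 to 11 weeks. The organoids were embedded in Matrigel and kept for 7 days in a minimal medium with CHIR99021 at 1, 1.5 or 3 µM or with its solvent DMSO alone. CHIR99021 is a small molecule that blocks the kinase GSK3 and so stabilises β-catenin, the carrier of the canonical WNT signal. A culture was started from a different animal each time, 3 in all, and divided over the 4 treatments, which gave 12 libraries of polyadenylated RNA, 3 per group. No genetic modification is named in the labels. The titles also mark cultures 1, 2 and 3 as med, min and max, terms that the sources used here do not explain. Organoids made from tissue fragments can carry stromal cells with them, and the libraries are of whole organoids, so every value below is an average over all cells of a culture. In such bulk RNA, fewer cells of a type and less RNA per cell cannot be told apart.

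Cadherins are calcium-dependent adhesion molecules that join neighbouring cells at adherens junctions and bind β-catenin, the same protein that GSK3 inhibition stabilises, through their cytoplasmic tails. E-cadherin (Cdh1) is the adhesion molecule of epithelia, P-cadherin (Cdh3) marks the basal myoepithelial layer of the mammary gland, and N-cadherin (Cdh2) is typical of mesenchymal and neural cells. In epithelial-mesenchymal transition, zinc finger factors of the Snail and Zeb families bind E-boxes in the Cdh1 promoter and repress it, the helix-loop-helix factor Twist1 acts with them, and cells gain N-cadherin, the intermediate filament vimentin (Vim) and the matrix protein fibronectin (Fn1). Snai2, also called Slug, is in addition a normal factor of basal mammary epithelial cells. Stromal fibroblasts, macrophages and endothelial cells carry Vim, Fn1 and Zeb transcripts as part of their ordinary state.

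Libraries held 10.1 to 24.5 M counts (M, mega). The WNT target Axin2 checked the treatment labels. Its level was 3.24, 2.74 and 2.26 CPM (counts per M counts of effective library size) with DMSO in cultures 1, 2 and 3. At 3 µM it was 132, 67.2 and 52.4 CPM in the same order. Its log2 fold change was 4.92 ± 0.648 (SE), with an adjusted p of 0.000147. The epithelial marker Epcam stood at 466 ± 126 CPM (SD, n = 3) with DMSO. That value does not give the share of epithelial cells, and stromal markers were read in the same libraries, as given below. Adjusted p-values throughout are from edgeR's quasi-likelihood test with Benjamini-Hochberg adjustment over all genes tested, two-sided, and "called" means an adjusted p under 0.05. Because replicate numbers mark animals, a second fit with the culture as a term, called the paired fit below, was run on every comparison. Its values are printed where they change a call.

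With 3 µM CHIR99021, N-cadherin, vimentin and Zeb2 fell and P-cadherin and Snai2 rose, while E-cadherin, the most abundant of the cadherins, was not called. Cdh2 fell 8.51-fold, Zeb2 7.71-fold and Vim 4.63-fold, and Snai2 and Cdh3 rose 2.69-fold and 1.92-fold. The paralogs Snai1 and Snai2 had fitted log2 fold changes of opposite sign, −1.20 for Snai1, which was not called, and 1.43 for Snai2. Called members numbered 5 of 10, against 57.5% of all genes tested. In the upward direction there were 2, against 29.9% of genes, and in the downward direction 3, against 27.7%. The members' counts were near those shares. In the paired fit all 10 were called, against 68.9% of genes, with Cdh1, Cdh3 and Snai2 higher (34.1% of genes) and the other 7 lower (34.8% of genes). With a library or a culture left out the paired fit called 7 to 10 members, and without culture 2 the calls of Snai1, Twist1 and Cdh1 were lost. In 5 of 10 members the 3 µM and DMSO libraries did not overlap in CPM, against 60.8% of genes.

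**Figure D1:**
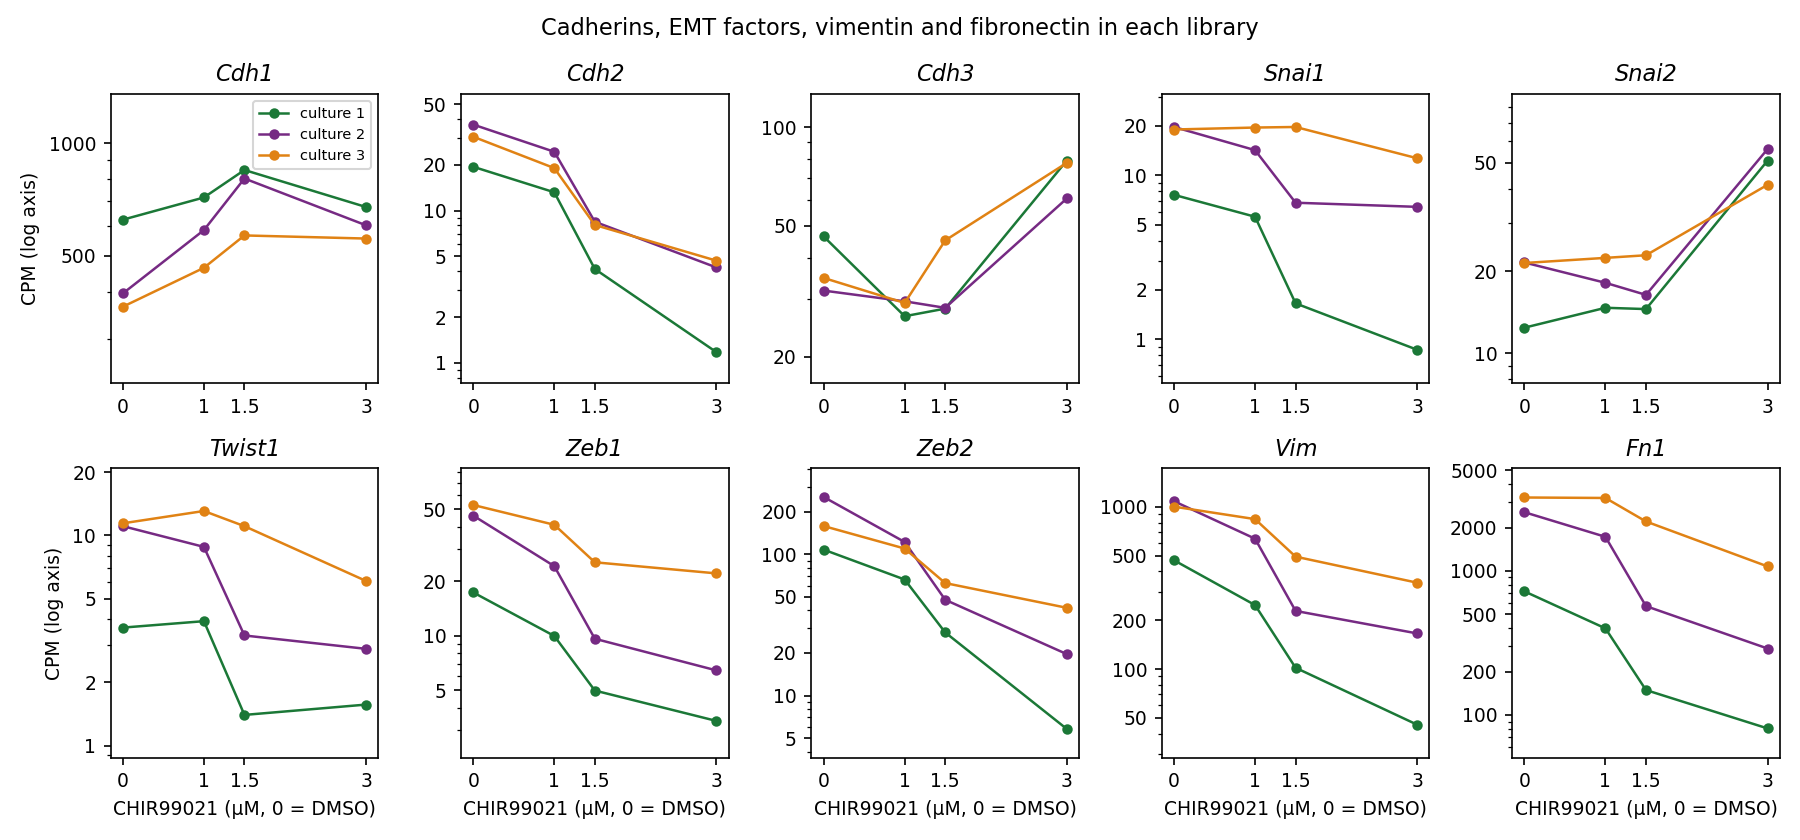
CPM (log axis) of each of the 10 genes against CHIR99021 dose in µM, 1 line per culture and 1 point per library. Cdh2, Vim, Zeb1, Zeb2 and Fn1 drop at each step in all 3 lines, Cdh3 and Snai2 are highest at 3 µM in all 3 lines, and culture 1 is the lowest line for Vim, Fn1, Snai1, Twist1 and Zeb1.

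In 5 members (Cdh2, Vim, Zeb1, Zeb2 and Fn1) CPM was lower at each higher dose in all 3 cultures, a course taken by 9.68% of genes, as the plot of CPM against dose shows. No member climbed at every step in every culture (0 of 10, against 9.48% of genes). At 3 µM, 7 members were below their own DMSO library in all 3 cultures (39.0% of genes), the same 5 with Snai1 and Twist1, and 3 members, Cdh1, Cdh3 and Snai2, were above it in all 3 (37.5% of genes).

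On a scale that divides by exon length (RPKM, CPM per kilobase of all annotated exons of a gene, merged), 3 members stood far above the rest in DMSO. Merged exons can be longer than any single transcript, and they ran to 19942 bp for Zeb2 and 1621 bp for Snai1. Ranks, ratios and shares between genes depend on these lengths. Fn1 was at 186 ± 111, Vim at 179.5 ± 70.4 and Cdh1 at 101.1 ± 30.9 RPKM (SD, n = 3), and these 3 overlapped one another. Snai1, Snai2, Zeb2 and Cdh3 lay between 8.59 and 9.52 RPKM, closer together than their SDs. Twist1 at 5.35 ± 2.70, Zeb1 at 3.77 ± 1.84 and Cdh2 at 3.59 ± 1.09 RPKM came last, and neighbours in that order also differed by less than the larger SD. At 3 µM Cdh1 was alone at the top with 133.7 ± 13.1 RPKM, ahead of Fn1 at 41.2 ± 44.8 and Vim at 38.8 ± 31.3. By mean, Snai2 followed at 24.5 ± 3.68 and Cdh3 at 16.5 ± 2.35, and the last was Cdh2 at 0.418 ± 0.237 RPKM. That order did not hold in each culture. In culture 1 Snai2 was at 25.2 and Cdh3 at 18.0 RPKM, above Vim at 9.57 and Fn1 at 6.91. In culture 2 Snai2 at 27.8 was above Fn1 at 24.8 and below Vim at 35.0. In culture 3 Fn1 at 91.9 and Vim at 71.8 were above Snai2 at 20.6.

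E-cadherin (Cdh1, ENSMUSG00000000303, GRCm38 chr8:106603351-106670246, plus strand) was read at 624, 397 and 366 CPM in cultures 1, 2 and 3 with DMSO. It was read at 716, 586 and 465 at 1 µM, 847, 804 and 567 at 1.5 µM and 675, 603 and 556 at 3 µM. Within each culture the 1.5 µM library was the highest, and the DMSO and 3 µM groups overlapped because culture 1 with DMSO was as high as the treated libraries. The log2 fold change was 0.40 ± 0.235 at 3 µM (95% interval −0.12 to 0.93, adjusted p = 0.165) and 0.68 ± 0.236 at 1.5 µM (adjusted p = 0.0567). The paired fit called Cdh1 higher at both doses, with log2 fold changes of 0.44 (adjusted p = 0.00943) and 0.69 (adjusted p = 0.00170). Without the DMSO library of culture 1 the fit of group means also called it at 3 µM, with 0.68 and an adjusted p of 0.0230. The paired call at 3 µM was lost without the DMSO library of culture 2 (adjusted p = 0.0582), without culture 2 (0.0751) or 3 (0.0624) altogether, and under scaling by library size alone, with 0.24 and an adjusted p of 0.156. At 1.5 µM the fit of group means called it under that scaling (0.0478), as did DESeq2 (0.0344).

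P-cadherin (Cdh3, ENSMUSG00000061048, chr8:106510913-106556908, plus strand) lies next to Cdh1, its end 46443 bp before the start of Cdh1. Its CPM was 46.5, 31.8 and 34.7 with DMSO, 26.6, 29.5 and 29.1 at 1 µM, 28.0, 28.2 and 45.2 at 1.5 µM and 79.1, 60.6 and 77.8 at 3 µM. Each of the 3 µM libraries was above every library of the other groups. Its log2 fold change was 0.94 ± 0.208 at 3 µM (adjusted p = 0.00316), and it was called in 12 of 12 fits that left out a library. The step from 1.5 to 3 µM alone gave 1.102 ± 0.208 (adjusted p = 0.00400), a call lost without culture 1 (0.0685) or 2 (0.0829). At 1 µM its libraries were all below the DMSO ones, the only member of 10 in which those groups did not overlap (19.4% of genes), but the log2 fold change of −0.41 ± 0.207 was not called (adjusted p = 0.486).

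N-cadherin (Cdh2, ENSMUSG00000024304, chr18:16588877-16809246, minus strand) stood at 19.4, 36.8 and 30.6 CPM with DMSO, 13.2, 24.4 and 19.0 at 1 µM, 4.14, 8.45 and 8.05 at 1.5 µM and 1.18, 4.24 and 4.69 at 3 µM. The libraries at 1.5 and at 3 µM were all below those with DMSO, and at 3 µM the values rested on 15, 66 and 68 counts. In the fit of group means the log2 fold change was −2.06 ± 0.473 at 1.5 µM (adjusted p = 0.0104) and −3.09 ± 0.5002 at 3 µM (adjusted p = 0.000522), both called in 12 of 12 fits without a library. Without culture 2 the call at 1.5 µM was lost (adjusted p = 0.165) and that at 3 µM was not (0.0267). Within cultures the decrease at 3 µM was 16.5-fold, 8.68-fold and 6.52-fold. The gene Gm15485 overlaps Cdh2 on the opposite strand, and whether counting used the strand is not given in the sources used here.

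Summing the RPKM of the 3 cadherins gives each one's share of this small pool. With DMSO Cdh1 held 88.8 ± 2.16% (SD, n = 3), and with CHIR99021 it held 93.4 ± 1.77% at 1 µM, 94.7 ± 2.62% at 1.5 µM and 88.7 ± 1.67% at 3 µM. Cdh2 held 1.61, 4.62 and 4.14% in cultures 1, 2 and 3 with DMSO and 0.0880, 0.359 and 0.416% at 3 µM, and Cdh3 went from 7.09, 7.35 and 8.64% to 10.9, 9.46 and 12.7%. The 3 µM and DMSO shares did not overlap for Cdh2 or for Cdh3. The ratio of Cdh1 to Cdh2 in RPKM was 56.7, 19.0 and 21.1 with DMSO and 1012, 251 and 209 at 3 µM. Relative to the loss of E-cadherin and gain of N-cadherin by which the switch is usually defined, the direction in every culture was the opposite one for Cdh2.

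Of the Snail paralogs, Snai2 rose at 3 µM, while Snai1 was lower than with DMSO in cultures 1 and 2 from 1 µM on. Snai2 (ENSMUSG00000022676, chr16:14705852-14709395, plus strand) was read at 12.4, 21.5 and 21.4 CPM with DMSO, 14.7, 18.1 and 22.4 at 1 µM, 14.5, 16.4 and 22.9 at 1.5 µM and 51.0, 56.2 and 41.5 at 3 µM. The groups overlapped up to 1.5 µM, and every 3 µM library was above all the others. Its log2 fold change was −0.04 ± 0.254 at 1.5 µM (95% interval −0.60 to 0.53) and 1.43 ± 0.258 at 3 µM (adjusted p = 0.000981), with 1.47 ± 0.257 (adjusted p = 0.00279) for the step between these doses. The 3 µM call was present in 12 of 12 fits that left out a library. In this it resembled Cdh3, and the pair were the 2 members called in the step from 1.5 to 3 µM in the fit of group means.

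Snai1 (ENSMUSG00000042821, chr2:167538195-167542814, plus strand) was read at 7.60, 19.7 and 19.0 CPM with DMSO, 5.59, 14.2 and 19.5 at 1 µM, 1.66, 6.80 and 19.7 at 1.5 µM and 0.863, 6.42 and 12.7 at 3 µM. Culture 3 stayed at its DMSO level up to 1.5 µM, while cultures 1 and 2 were lower at each step, and the counts at 3 µM were 11, 100 and 184. The log2 fold change at 3 µM was −1.20 ± 0.953 (95% interval −3.32 to 0.92, adjusted p = 0.299). In the paired fit it was −1.58 ± 0.430 (adjusted p = 0.00955), a call lost without culture 2 (0.0983). In RPKM, the ratio of Snai2 to Snai1 was 1.31, 0.876 and 0.904 with DMSO and 47.4, 7.03 and 2.62 at 3 µM, in cultures 1, 2 and 3.

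Twist1 (ENSMUSG00000035799, chr12:33957671-33959817, plus strand) is a helix-loop-helix factor of mesoderm and mesenchyme. Its libraries gave 3.64, 11.1 and 11.4 CPM with DMSO, 3.91, 8.82 and 13.1 at 1 µM, 1.40, 3.34 and 11.1 at 1.5 µM and 1.57, 2.89 and 6.07 at 3 µM, the last from 20, 45 and 88 counts. As for Snai1, culture 3 was near its DMSO value at 1.5 µM and the groups overlapped at every dose. In the fit of group means the log2 fold change at 3 µM was −1.30 ± 0.795 (adjusted p = 0.183) and in the paired fit −1.38 ± 0.316 (adjusted p = 0.00368), a call lost without culture 2 (0.0575). At 1.5 µM the paired value of −0.95 (adjusted p = 0.0287) was lost without the DMSO library of culture 1 (0.0676) or 2 (0.123) without the 1.5 µM library of culture 1 (0.101) or 2 (0.139), and without culture 1 (0.175) or 2 (0.299) altogether.

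Promoter sequence was at hand for only 4 of the 10 members, and these 4 are shown for that reason. All 4 were among the 7 members below their own DMSO level at 3 µM in every culture. Each run is the 250 bases before the RefSeq start (GRCm38.p6), 5′ to 3′ on the gene's strand. The windows are chr2:13574061-13574310 for Vim, which lies inside the gene's span in the deposited table, chr2:45117443-45117692 for the outermost of the Zeb2 starts, chr2:167537945-167538194 for Snai1 and chr12:33957421-33957670 for Twist1. Capitals mark the E-box CACCTG (or CAGGTG), to which Zeb and Snail factors bind, the TCF/LEF heptamer CTTTGAT (or ATCAAAG) and the CCAAT box (or ATTGG), searched on both strands.
Snai1: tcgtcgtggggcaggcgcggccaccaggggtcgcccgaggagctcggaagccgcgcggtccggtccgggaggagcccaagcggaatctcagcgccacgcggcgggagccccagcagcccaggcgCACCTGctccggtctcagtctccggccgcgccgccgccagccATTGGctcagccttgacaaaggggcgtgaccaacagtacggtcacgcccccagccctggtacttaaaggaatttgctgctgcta
Twist1: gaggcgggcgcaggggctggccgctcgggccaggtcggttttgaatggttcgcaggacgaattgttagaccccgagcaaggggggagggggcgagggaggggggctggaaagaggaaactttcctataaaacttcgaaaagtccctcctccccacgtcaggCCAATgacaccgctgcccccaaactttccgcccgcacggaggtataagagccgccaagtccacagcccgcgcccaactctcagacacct
Zeb2: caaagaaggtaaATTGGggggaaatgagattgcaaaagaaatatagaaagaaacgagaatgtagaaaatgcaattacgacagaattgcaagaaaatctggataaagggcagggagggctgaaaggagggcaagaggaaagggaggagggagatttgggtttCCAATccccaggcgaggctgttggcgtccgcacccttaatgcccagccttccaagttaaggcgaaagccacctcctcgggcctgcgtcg
Vim: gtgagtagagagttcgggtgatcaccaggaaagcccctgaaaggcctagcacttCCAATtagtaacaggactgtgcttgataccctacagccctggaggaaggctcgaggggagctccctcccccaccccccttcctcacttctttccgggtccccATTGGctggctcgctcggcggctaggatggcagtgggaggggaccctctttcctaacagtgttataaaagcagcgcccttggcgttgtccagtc
The E-box occurred in the Snai1 window, 126 bases before the start, and in none of the other 3, against 17.22% of 32851 RefSeq windows of this length. The TCF/LEF heptamer was in none of the 4 (3.205% of windows), which says only that these letters are not in these windows. A CCAAT box was in each of the 4 windows printed (33.85% of windows), though not in those of the other 3 Zeb2 starts, at 84 bases before the start in Snai1, 89 in Twist1, 89 and 238 in Zeb2 and 94 and 196 in Vim. The letters TATAAA, left in lower case, were found 126 bases before the Twist1 start and 32 before the Vim start (12.37% of windows). None of these matches is evidence of binding.

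Zeb2 (ENSMUSG00000026872, chr2:44983634-45117395, minus strand), a zinc finger factor, was called lower at 1.5 and at 3 µM. Its CPM was 108, 254 and 158 with DMSO, 66.2, 122 and 109.6 at 1 µM, 27.9, 47.6 and 62.5 at 1.5 µM and 5.80, 19.6 and 41.8 at 3 µM. From 1.5 µM on, every treated library was below every DMSO library. The log2 fold change was −2.95 ± 0.630 at 3 µM (adjusted p = 0.00273), called in 12 of 12 fits without a library but not in the fit without culture 2 (adjusted p = 0.0929). At 1.5 µM it was −1.91 ± 0.602 (adjusted p = 0.0397), a call present in 4 of 12 fits that left out a library, those without a culture 1 library of DMSO, 1 µM or 3 µM or without the 3 µM library of culture 3. The paired fit called it at both doses, with −1.94 (adjusted p = 0.00263) and −3.13 (adjusted p = 0.000112), the first of which was lost without culture 2 (0.0786). Zeb2os, an antisense gene, and Gm27404, Gm27645 and Gm27761 overlap Zeb2 on the opposite strand.

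Its paralog Zeb1 (ENSMUSG00000024238, chr18:5591860-5775467, plus strand) was read at 17.3, 46.1 and 52.8 CPM with DMSO, 9.95, 24.2 and 41.0 at 1 µM, 4.97, 9.61 and 25.4 at 1.5 µM and 3.37, 6.42 and 22.1 at 3 µM. Each culture was lower at each dose, but culture 3 at 3 µM was above culture 1 with DMSO, so the groups overlapped. In the fit of group means the log2 fold change at 3 µM was −1.86 ± 0.828 (adjusted p = 0.0773). Without the 3 µM library of culture 3 it was −2.99 (adjusted p = 0.0173), DESeq2 called it (adjusted p = 0.0221), and the paired fit gave −2.11 ± 0.268 (adjusted p = 0.000122). Gm10125 and Gm16147 overlap Zeb1 on the opposite strand. In RPKM the ratio of Zeb2 to Zeb1 was 3.20, 2.84 and 1.54 with DMSO and 0.886, 1.58 and 0.973 at 3 µM.

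Of the summed RPKM of the 5 factors, Snai2 took a growing share with dose. It held 30.4, 22.7 and 25.0% in cultures 1, 2 and 3 with DMSO, 65.6, 45.8 and 31.6% at 1.5 µM and 92.3, 79.1 and 56.5% at 3 µM. The libraries at 1.5 and at 3 µM were all above those with DMSO, with culture 1 farthest and culture 3 least far. The mean share of Zeb2 went from 24.2 ± 4.797% to 3.21 ± 2.37%, that of Zeb1 from 10.03 ± 1.91% to 2.96 ± 2.57%, that of Snai1 from 25.6 ± 2.21% to 11.6 ± 9.80% and that of Twist1 from 14.1 ± 2.74% to 6.28 ± 3.53%. At 1.5 µM the level of Snai2 itself had not been called, and its larger share there went with lower levels of the other 4 in cultures 1 and 2.

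**Figure D2:**
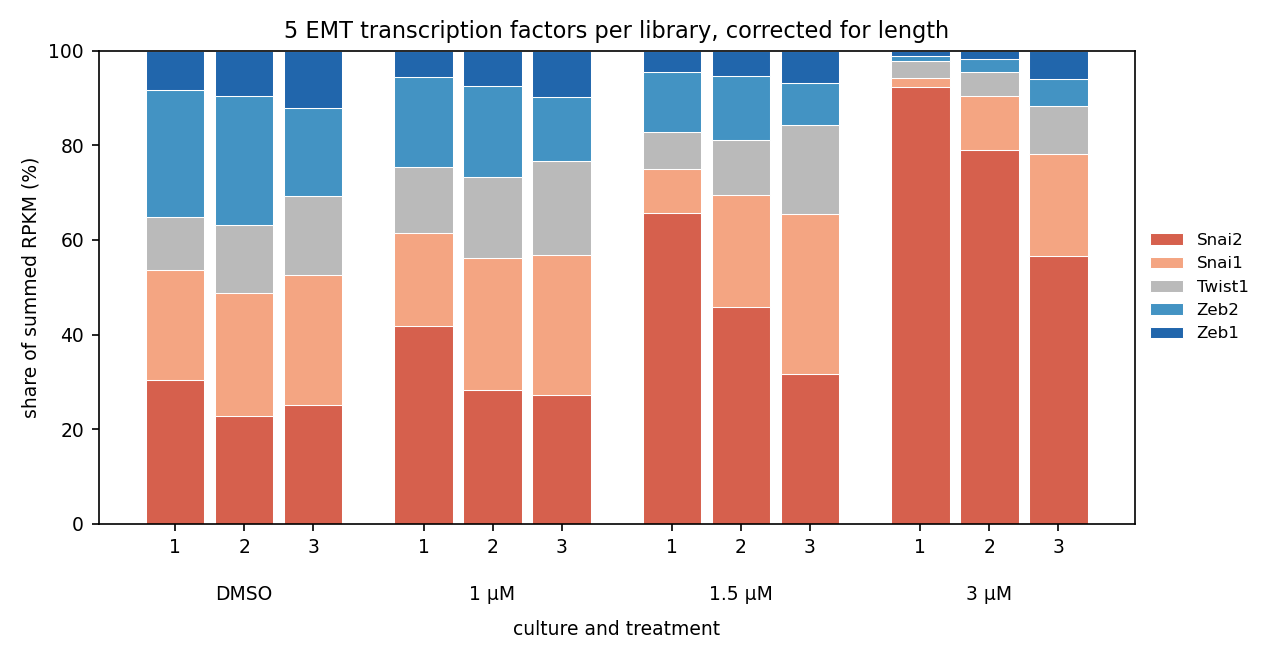
Stacked bars of the share (%) of each of the 5 factors in their summed RPKM, 1 bar per library, grouped by CHIR99021 dose and ordered by culture. The Snai2 segment is 22.7 to 30.4% with DMSO and 56.5 to 92.3% at 3 µM, where it is larger than the other 4 together in each culture.

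Vimentin (Vim, ENSMUSG00000026728, chr2:13573927-13582826, plus strand) was read at 468, 1083 and 1002 CPM with DMSO, 248, 636 and 840 at 1 µM, 102, 228 and 493 at 1.5 µM and 45.4, 166 and 341 at 3 µM. All 3 µM libraries were below all DMSO libraries, and culture 1 was the lowest at each dose. The log2 fold change at 3 µM was −2.21 ± 0.782 (adjusted p = 0.0332). This call was present in 8 of 12 fits without a library and was lost without the 3 µM library of culture 1 (adjusted p = 0.0756) or 2 (0.0919), without the DMSO library of culture 2 (0.0792) or 3 (0.0696), without culture 2 altogether (0.268) and without a filter on low counts (0.0653). In the paired fit it was −2.54 ± 0.298 (adjusted p = 7.61e-05) at 3 µM and −1.86 ± 0.289 (adjusted p = 0.00105) at 1.5 µM.

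Fibronectin (Fn1, ENSMUSG00000026193, chr1:71585520-71653200, minus strand) had the lowest p of the 10 in the test between cultures given below. Its CPM was 721, 2555 and 3231 with DMSO, 399, 1723 and 3207 at 1 µM, 149, 569.5 and 2203 at 1.5 µM and 80.7, 289 and 1074 at 3 µM. Culture 3 at 3 µM was above culture 1 with DMSO, although each culture was lower at each dose. In the fit of group means the log2 fold change at 3 µM was −2.17 ± 1.17 (95% interval −4.78 to 0.43, adjusted p = 0.135), and −3.57 (adjusted p = 0.0466) without the 3 µM library of culture 3. The paired fit gave −2.68 ± 0.335 (adjusted p = 0.000112) at 3 µM and −1.71 ± 0.325 (adjusted p = 0.00283) at 1.5 µM, where the call was lost without culture 1 (0.0580) or 2 (0.0723). Apol7d overlaps Fn1 on the opposite strand.

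At lower doses fewer members were called. At 1 µM there were 0 of 10 in the fit of group means (0.242% of genes), with 0 at an unadjusted p under 0.05 and 0 by DESeq2. The paired fit also called 0 (5.61% of genes), with 4 at an unadjusted p under 0.05. The 95% interval at 1 µM ran from −2.10 to 0.50 for Zeb2 on the log2 scale, which takes in the value fitted at 1.5 µM (−1.91), and from −1.62 to 0.40 for Cdh2, which does not take in the −2.06 of that dose. At 1.5 µM Cdh2 and Zeb2 were called, 2 of 10 against 27.3% of genes, both lower (11.8% of genes). The CPM of these 2 were also the ones that did not overlap with DMSO, against 45.6% of genes. DESeq2 called 4 members and 5045 genes at that dose. The paired fit called 7 (46.7% of genes), of which Cdh1 was higher (22.3% of genes) and Cdh2, Vim, Zeb1, Zeb2, Fn1 and Twist1 lower (24.3% of genes). Snai1 there had a log2 fold change of −1.13 and an adjusted p of 0.0521.

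**Figure D3:**
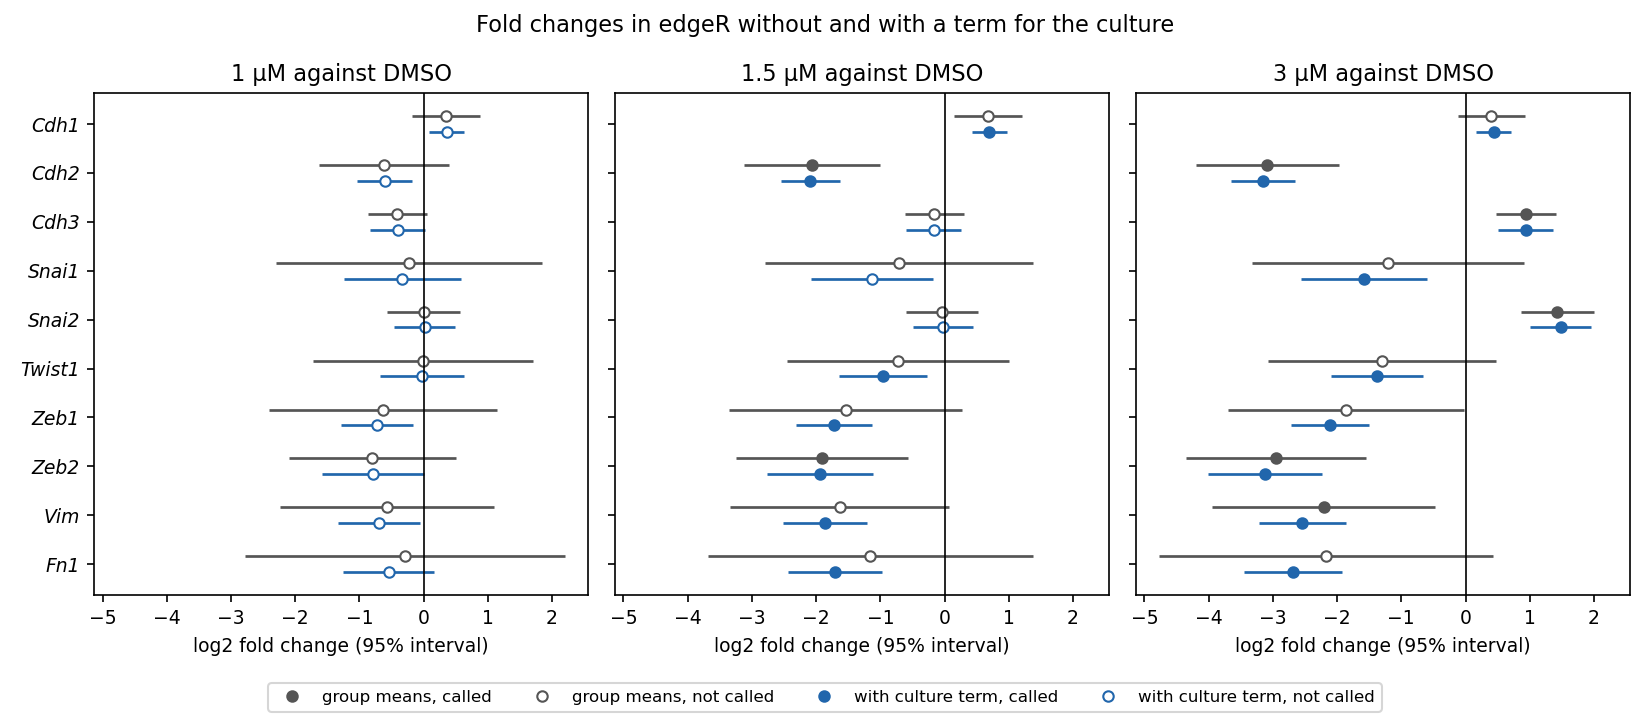
Log2 fold change against DMSO of the 10 genes at 1, 1.5 and 3 µM with 95% intervals, from the fit of group means (grey) and the fit with culture as a term (blue), 3 libraries per group, with filled points for adjusted p under 0.05. At 3 µM 5 grey and all 10 blue points are filled, and Cdh3 and Snai2 lie near 0 at 1.5 µM but at 0.94 and 1.43 at 3 µM.

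Between neighbouring doses, Cdh2, Vim, Zeb1, Zeb2 and Fn1 had lower values at each step in every culture, and Cdh3 and Snai2 rose at the step to 3 µM. From 1 to 1.5 µM the fit of group means called 0 of 10 (5.43% of genes, with 1 member at an unadjusted p under 0.05), and DESeq2 called 1, Cdh2. The paired fit called 5 (21.9% of genes), all lower (10.5% of genes): Cdh2 with −1.48, Vim with −1.17, Fn1 with −1.16, Zeb2 with −1.15 and Zeb1 with −1.0, at adjusted p-values from 0.00220 to 0.0496. With a library left out the paired fit called Cdh2 in 12 of 12 fits, Vim in 8, Zeb1 and Fn1 in 7 and Zeb2 in 3. Without culture 2 none of the 5 was called, Cdh2 included (adjusted p = 0.0986), and without culture 1 Cdh2 alone was. From 1.5 to 3 µM the fit of group means called Cdh3 and Snai2, 2 of 10 (29.7% of genes), both higher (17.0% of genes), and both calls were lost without culture 2 (adjusted p = 0.0829 and 0.122), that of Cdh3 also without culture 1 (0.0685). The paired fit called 5 (46.7% of genes), with the same 2 higher (24.7% of genes) and Cdh2, Zeb2 and Fn1 lower (22% of genes). Of those, Cdh2 was called in 12 of 12 fits without a library, Fn1 in 9 and Zeb2 in 7, and without culture 2 none of these 3 was (0.0841 for Cdh2), while without culture 1 Zeb2 (0.156) and Fn1 (0.126) were not. The slope per µM over all 4 doses was called for 6 members (58.2% of genes). It was positive for Snai2 at 0.50 and Cdh3 at 0.35 (30.2% of genes), and negative for Cdh2 at −1.08, Zeb2 at −1.01, Vim at −0.76 and Zeb1 at −0.64 (28.0% of genes), of which Zeb1 was called in 6 of 12 fits without a library. Without culture 2 the slopes of Cdh3 (0.0586), Vim (0.155) and Zeb1 (0.277) were not called, and without culture 3 that of Cdh3 was not (0.0707). In the paired fit 9 slopes were called (64.5% of genes), 2 higher (32.2% of genes) and 7 lower (32.3% of genes), and the exception was Cdh1 (adjusted p = 0.103). The paired slope of Cdh3 was called in 9 of 12 fits without a library and not without culture 2 (0.0551) or 3 (0.0699).

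The 3 cultures differed in most of these genes. Each had its own animal and its own mark of med, min or max, which cannot be told apart here. A test of culture differences across doses called 8 of 10 members, against 28.8% of genes, with the smallest adjusted p-values for Fn1 (0.000463), Zeb1 (0.000903) and Vim (0.00209). Twist1 (0.00237), Snai1 (0.00549), Cdh2 (0.00648), Cdh1 (0.0106) and Zeb2 (0.0360) followed, while Snai2 (0.172) and Cdh3 (0.339) were not called. The Zeb2 call was present in 2 of 12 fits without a library, those without the culture 3 library of DMSO (0.0201) or of 3 µM (0.00855), and Snai2 was called without the latter (0.0115). Culture 3 exceeded culture 1 with DMSO by 4.48-fold in Fn1, 3.13-fold in Twist1, 3.05-fold in Zeb1, 2.502-fold in Snai1 and 2.14-fold in Vim, and at 3 µM by 13.3-fold, 3.87-fold, 6.55-fold, 14.7-fold and 7.50-fold. Cdh1 ran the other way, with culture 3 at 0.586 times culture 1 with DMSO and 0.824 times at 3 µM.

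For all 7 members below their DMSO level at 3 µM, the ratio within culture 3 was the smallest of the 3. Zeb2 at 3 µM was 18.6-fold, 12.9-fold and 3.79-fold below its own DMSO library in cultures 1, 2 and 3, Vim 10.3-fold, 6.53-fold and 2.94-fold, and Fn1 8.94-fold, 8.83-fold and 3.01-fold. Snai1 was 8.81-fold, 3.07-fold and 1.50-fold lower. Snai2 was 4.11-fold, 2.61-fold and 1.94-fold higher, again least in culture 3, while for Cdh3 the rise of 1.70-fold, 1.91-fold and 2.24-fold was greatest there. A test of whether the dose slope differed between cultures called 0 of 10 members and 0% of all genes. At an unadjusted p under 0.05 edgeR picked 2 members, Zeb2 and Snai1, and 1230 genes, and DESeq2 called 0 members and 233 genes.

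Markers of most stromal cell types were lower at 3 µM, as were the members that fell, but their changes over the cultures differed. The counts below stand beside 29.9% of all genes called higher and 27.7% called lower at 3 µM, and 34.1% and 34.8% in the paired fit. The summed CPM of 10 fibroblast markers was 1644, 7410 and 20579 in cultures 1, 2 and 3 with DMSO. At 3 µM it was 181, 987 and 4588 CPM, and no marker of the list was at 0. That order of cultures was also shown at 3 µM by Cdh2, Vim, Fn1, Snai1, Twist1, Zeb1 and Zeb2. With DMSO it was shown by Fn1, Twist1 and Zeb1, while Cdh2, Vim, Snai1 and Zeb2 were highest in culture 2. Of the 10 fibroblast markers 2 fell and 0 rose in the fit of group means, and 9 fell in the paired fit. The sum of the macrophage markers lay between 454 and 3162 CPM with DMSO and between 158 and 337 CPM at 3 µM, and 6 of 8 fell. For endothelial markers these ranges were 279 to 581.8 and 31.3 to 96.6 CPM, and 6 of 6 fell. Pericyte markers (492 to 718 and 213 to 311 CPM, 5 of 6 fell) and adipocyte markers (3375 to 8990 and 36.2 to 237 CPM, 5 of 5 fell) were lower too. Of 4 Schwann cell markers tested 3 fell and 1 rose. From the DMSO to the 3 µM library of cultures 1, 2 and 3, the macrophage sum fell 2.87-fold, 6.63-fold and 9.37-fold. The adipocyte sum fell 40.4-fold, 37.9-fold and 93.3-fold, so both fell most in culture 3, unlike the members that fell. The fibroblast sum (9.09-fold, 7.51-fold and 4.48-fold) and the endothelial sum (8.93-fold, 8.48-fold and 4.89-fold) fell least there. The pericyte sum fell 2.31-fold, 2.88-fold and 2.31-fold. The sum of general epithelial markers was higher, 3025 to 5292 CPM with DMSO and 16185 to 32987 at 3 µM (4 of 8 rose, 2 fell). Of these, the keratin genes Krt5 and Krt14, which the basal list also holds, went from means of 805 and 1091 CPM to 8633 and 15636, while the other 6 summed to a mean of 2066 CPM with DMSO and 2031 at 3 µM. Higher too was the sum of squamous markers, 34.0 to 77.1 and 9827 to 34225 CPM (11 of 11 rose). Of the basal list 4 of 10 rose, namely Krt5, Krt14, Krt17 and Trp63, and 6 fell. Those 6 were Acta2, Myh11, Cnn1, Oxtr, Mylk and Actg2, with log2 fold changes from −7.10 (Oxtr) to −3.79 (Actg2). Of the luminal list 1 rose and 6 fell. The part of these cells in the members' changes was not tested.

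At 1 µM, where 0 members were called, the ratios within cultures varied among the stromal sums and among the members. The fibroblast sum differed from its own DMSO library by log2 ratios of 0.04, −0.16 and −0.07 in cultures 1, 2 and 3. The macrophage sum gave 0.15, −0.08 and −0.39. Lower in each culture were the endothelial sum, by −1.35, −1.54 and −0.30, the pericyte sum, by −0.38, −0.54 and −0.29, and the adipocyte sum, by −0.90, −1.34 and −1.75. Among the members, Vim differed by −0.92, −0.77 and −0.26, Zeb2 by −0.70, −1.06 and −0.53, Cdh2 by −0.56, −0.59 and −0.68 and Zeb1 by −0.80, −0.93 and −0.36. Fn1 differed by −0.85, −0.57 and −0.01, Snai1 by −0.44, −0.47 and 0.04 and Twist1 by 0.10, −0.33 and 0.19, with culture 3 near its DMSO level in Fn1 and Snai1. These are values of 1 library against 1 library.

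**Figure D4:**
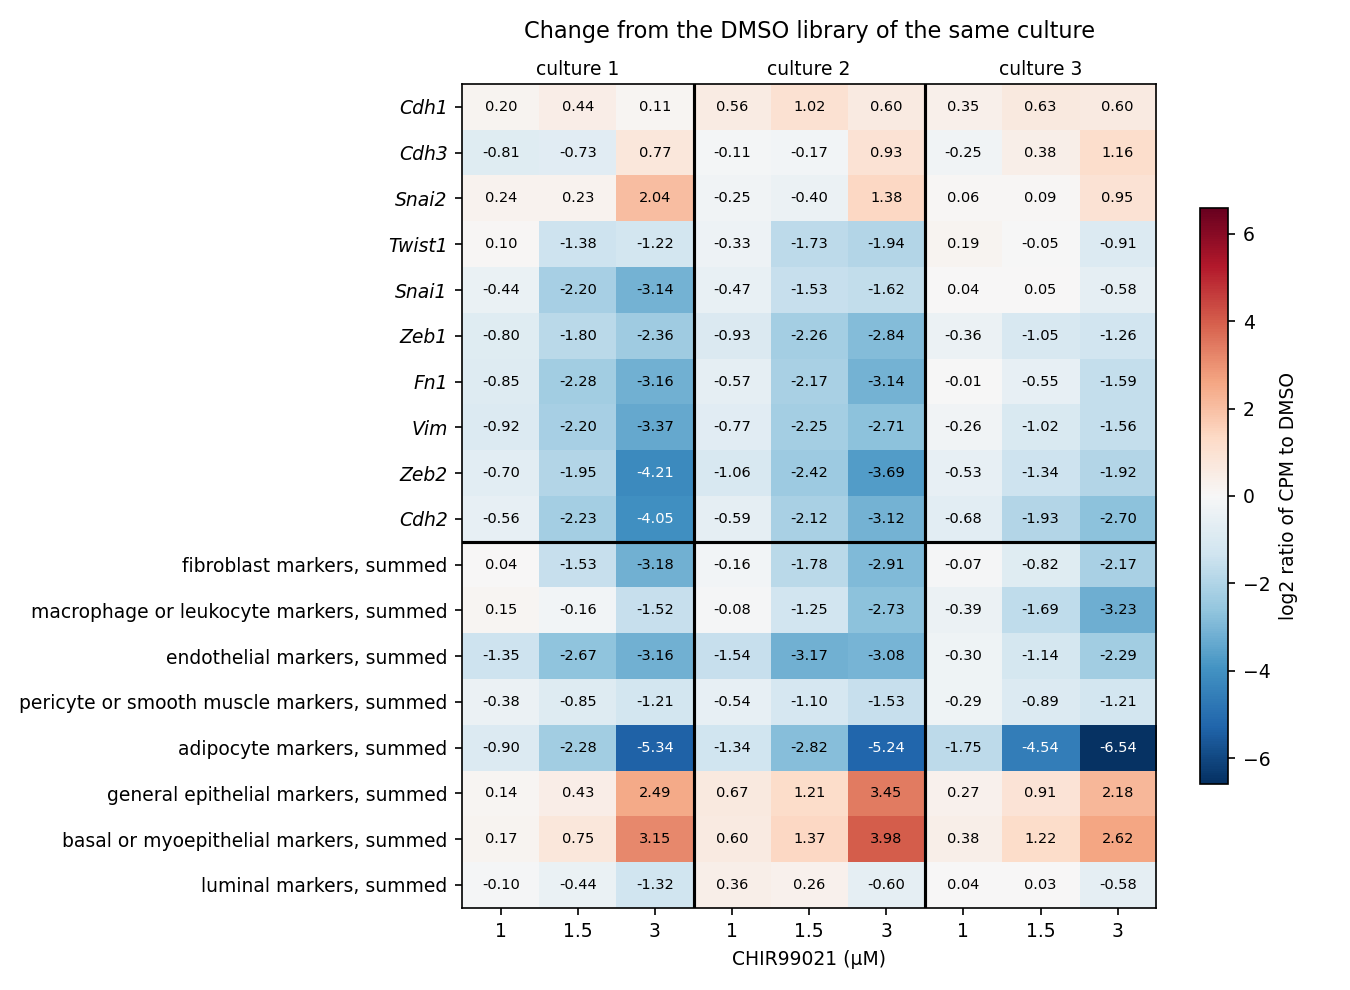
Heat map of the log2 ratio of CPM at 1, 1.5 and 3 µM to the DMSO library of the same culture, for the 10 genes and for summed marker lists, 1 column per library. At 1 µM the fibroblast row lies between −0.16 and 0.04 and the adipocyte row between −1.75 and −0.90, and at 3 µM the fibroblast row lies between −3.18 and −2.17 and the adipocyte row between −6.54 and −5.24.

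Other genes of the junction and of the transition were read at 3 µM from lists drawn up by known function, against a median log2 fold change of −0.03 over all genes (−0.23 under scaling by library size alone) and the same shares of genes called as above. Of 10 genes of the adherens junction plaque and nectins 4 rose and 2 fell, with a median of 0.29. Plakoglobin (Jup), a plaque protein of adherens junctions and desmosomes, was at 259 ± 60.2 CPM with DMSO and rose to 1288 ± 262 CPM (a log2 fold change of 2.31 with an adjusted p of 2.17e-05), and Nectin1, an adhesion receptor beside the cadherins, rose with 2.04. Nectin3 fell with −1.54 and vinculin (Vcl), which ties junctions to actin, with −0.50. Ctnnb1, which encodes β-catenin and is named after its value was seen, rose with 0.71. Of 15 other classical and type II cadherins 14 were in the table and 8 were tested, of which 1 rose and 4 fell, with a median of −2.29. Cdh24 rose with 1.09, and the endothelial cadherin Cdh5 fell with −2.84 and the mesenchymal cadherin Cdh11 with −2.21 (adjusted p = 0.0425). The other 2 that fell were Cdh10 and Cdh19, also named after their values were seen, each under 3 CPM with DMSO.

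Of 15 other transcription factors tied to the transition 13 were tested, of which 2 fell and 0 rose, with a median of −0.39. These were the homeobox gene Prrx2 with −2.61 and the helix-loop-helix gene Tcf4 with −1.13, and in the paired fit 6 fell and 2 rose. Of 11 genes listed for keeping the epithelial state, Epcam among them, 7 rose and 0 fell, with a median of 0.92. The paired fit gave 7 and 0 as well. The largest rises were those of the grainyhead factor Grhl3, from 1.44 ± 0.458 to 63.5 ± 16.2 CPM (log2 fold change 5.41), and of Klf4, from 20.0 ± 4.81 to 319 ± 85.4 CPM (3.99). Squamous markers, 11 of 11, rose in the same comparison, and the part of squamous cells in these rises was not tested. Epcam (0.37, adjusted p = 0.192), Elf3 and Elf5 were among those not called. Of 16 mesenchymal effectors 5 fell and 1 rose, with a median of −0.95, and in the paired fit 11 fell and 2 rose. Tagln fell with −4.59 and Acta2 with −4.55, both also genes of the contractile myoepithelial layer, and the gelatinase gene Mmp9 rose with 5.10. Col1a1 and Col3a1 stand both in this list and among the fibroblast markers, as Cdh5 does among the endothelial ones and Acta2 among the basal ones.

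Among themselves the members were closest in the pairs Cdh2 and Zeb2, Vim and Zeb1, Twist1 and Zeb1, and Cdh3 and Snai2. The measure is the root mean square difference of 2 profiles of log2 CPM over the 12 libraries, each centred on its own mean. It was 0.285, 0.306, 0.390 and 0.411 for these pairs. The measure is not scaled, so genes that vary little lie close by it. A profile's own root mean square spread was 0.356 for Cdh1, 0.558 for Cdh3 and 0.689 for Snai2, but 1.38 for Cdh2 and 1.42 for Zeb2. The pair farthest apart was Cdh1 and Fn1 at 1.99. Over 12429 candidate genes, the profile of Cdh1 was most like Serinc5 (0.107), Clmn (0.114) and Ocln (0.121), and that of Cdh2 most like Col4a2 (0.151), Col4a1 (0.164) and Ccdc80 (0.219). Vim was closest to Dennd2a (0.184), Zeb1 to Lamb1 (0.207), Zeb2 to Ccdc80 (0.205), Fn1 to Rcn3 (0.224), Twist1 to Mrc2 (0.237) and Snai1 to Olfml2b (0.283). The 2 members that rose at 3 µM had other neighbours, Snai2 with Ikbke (0.123) and Cdh3 with Plekhb2 (0.200). These distances describe libraries that share dose, culture and depth, and carry no test.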

How the data were processed

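Polyadenylated RNA of 12 organoid samples, from 3 cultures, was made into stranded TruSeq libraries and read on a HiSeq sequencer, as the labels' protocols describe. The submitters' processing notes name TopHat2 2.1, Bowtie 1.1.0, HTSeq, DESeq2 and GRCm38/mm10, without saying which step each served. The strand setting of the counting and the annotation release are not given in the sources used here. The authors deposited raw read counts for 25210 genes and a log2 table, whose values are log2 of the count scaled to a total of 10000000 plus 1 (0 values differed on recomputation, tolerance 1e-06). All tests were run on the counts. There were 0 per-sample columns without a sample.

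Genes were filtered with filterByExpr (15316 kept), scaled by TMM and tested with edgeR 4.0.16 in R 4.3.3 (robust glmQLFit, then glmQLFTest, two-sided), fitting group means over all 12 libraries and Benjamini-Hochberg adjustment at 0.05. No model is stated in the labels. Replicate numbers mark animals and so pair libraries across groups: deviations from group means correlated at 0.177 to 0.840 in all 18 same-number pairs. The median was 0.505, against −0.212 in pairs of different number, which reached 0.288. Deviations from a mean of 3 libraries push the latter below 0. The lowest same-number values, 0.177 and 0.216, were those of the DMSO library of culture 2. Adding the culture as a block took the common biological coefficient of variation from 0.305 to 0.156. Library totals of 10.1 to 24.5 M counts limit low genes, and counting error alone understates their error. Replicate libraries differed by at least 12.85 in chi-square per degree of freedom, so none was taken for a copy. RPKM used merged exon lengths of GENCODE M21. The fit of group means, the dose slope without the block and the tests between cultures were run on simulated data. The paired fit was not scored there for recovered or false calls.

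Alternatives were library size scaling, DESeq2 1.42.0, no filter, only the groups compared, the replicate block, and leaving out each library or culture, and, added after the data were seen, the last and the scaling with the block. The members and all lists were chosen with earlier results of these data known. All 10 members are named in each comparison. From each of 5 lists (junction plaque and nectins, other cadherins, other transition factors, epithelial-state genes, mesenchymal effectors) up to 2 largest rises and 2 largest decreases with at least 50 counts on average are named. For likeness, up to 3 nearest genes with at least 50 counts on average are named. Marker lists cover 10 cell types. Promoters are from RefSeq.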

Additional observations from a re-analysis of the deposited data

How the results depend on the processing

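Calls of Cdh2, Cdh3, Snai2 and Zeb2 at 3 µM held in each of the 12 fits without a library, while those of Vim at 3 µM and Zeb2 at 1.5 µM did not, as given above. Depth limits Snai1, Twist1 and Cdh2 at 3 µM most, where a library held as few as 11, 20 and 15 counts. Where a group is left with fewer libraries its spread is assumed to be that of the others. The cause of the changes below was not tested.

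With the replicate block, members called numbered 7 at 1.5 µM, 10 at 3 µM, 5 from 1 to 1.5 µM and 5 from 1.5 to 3 µM. Genes called then numbered 859 at 1 µM, 7147 at 1.5 µM, 3351 from 1 to 1.5 µM and 7149 from 1.5 to 3 µM, against 37, 4177, 831 and 4544 without it. The block turned the log2 fold change of Snai2 at 1 µM to 0.014. DESeq2 called 4 members at 1.5 µM, 1 from 1 to 1.5 µM, and 485 genes at 1 µM, 1634 from 1 to 1.5 µM and 233 for the difference in slope between cultures. Without a filter, 1 member was called at 1.5 µM, 494 genes from 1 to 1.5 µM and 2 for the difference in slope, and Snai2 at 1 µM was 0.0028. With only the groups compared, 0 genes were called at 1 µM (1798 at an unadjusted p under 0.05 in the fit of all 4 groups) and 2852 from 1.5 to 3 µM. With library size scaling, Snai2 was 0.080 at 1 µM and 0.037 at 1.5 µM and Twist1 0.070 at 1 µM. With that scaling and the block, Twist1 was 0.053 at 1 µM and Snai2 0.048 at 1.5 µM.

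Leaving out a library or a culture gave the following ranges. At 1 µM 0 to 119 genes were called, and the log2 fold change ran from −0.63 to 0.13 for Snai1, −0.22 to 0.14 for Snai2, −0.44 to 0.34 for Twist1 and −1.03 to 0.19 for Fn1. At 1.5 µM 0 to 3 members and 457 to 5085 genes were called, with Cdh3 from −0.47 to 0.14 and Snai2 from −0.26 to 0.15. At 3 µM 3 to 7 members and 4769 to 9391 genes were called. From 1 to 1.5 µM 0 to 1508 genes were called, with Cdh3 from −0.014 to 0.39, Snai1 from −1.61 to 0.013 and Snai2 from −0.25 to 0.13. From 1.5 to 3 µM 0 to 3 members and 345 to 5682 genes were called, with Vim from −1.37 to 0.16, Snai1 from −1.35 to 0.64, Twist1 from −1.23 to 0.55, Zeb1 from −1.43 to 0.54 and Fn1 from −2.39 to 0.42. The dose slope called 3 to 7 members and 5778 to 9062 genes, and the culture difference 2658 to 5860 genes. The lowest member counts of 0, 3, 0 and 3 at 1.5 µM, at 3 µM, from 1.5 to 3 µM and for the slope were those without culture 2.

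With the replicate block as well, leaving out a library or a culture gave 0 to 4 members and 0 to 2243 genes at 1 µM, with Snai1 from −0.74 to 0.027, Snai2 from −0.15 to 0.14 and Twist1 from −0.33 to 0.26. At 1.5 µM it gave 4 to 8 members and 3231 to 8573 genes, with Cdh3 from −0.46 to 0.12 and Snai2 from −0.19 to 0.15. At 3 µM it gave 7 to 10 members and 7975 to 11152 genes. From 1 to 1.5 µM it gave 0 to 7 members and 114 to 5205 genes, with Cdh3 from −0.0074 to 0.40 and Snai2 from −0.19 to 0.081. From 1.5 to 3 µM it gave 2 to 8 members and 3069 to 8306 genes, with Snai1 from −0.76 to 0.11 and Twist1 from −0.67 to 0.11. Among these, 4 members were called at 1 µM without culture 3.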
